A study of Mus musculus with 13 samples.

Results

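The vascular endothelial growth factor (VEGF) and angiopoietin axis was followed through 9 genes of the mouse lung, namely the ligand genes Vegfa, Vegfc and Angpt1, the VEGF receptor genes Flt1, Kdr and Flt4, the co-receptor gene Nrp1 and the TIE receptor genes Tek and Tie1. They were chosen by symbol and are 9 of the 31053 genes in the deposited single-cell count matrix. Their counts of unique molecular identifiers (UMIs, tags that mark each captured RNA molecule) were read in 20856 of 37344 cell barcodes, namely those of libraries 1, 2, 3 and 7 with at most 10% of UMIs from mitochondrial genes. The study examined lung emphysema caused by instilled porcine pancreatic elastase (PPE) in C57BL/6 mice. Its labels give 1 dissociated whole-lung sample each for Control, PPE-emphysema, PPE-recovery (mice followed after elastase) and Asthma (an ovalbumin-induced allergic airway model), each from 1 mouse in the study's account, and 9 further lung samples (3 each of Acute injury, Con and emphysema) that were not analysed here. No transgene or deletion is given for these mice, and the sources used here give no age. Nothing ties a library number to a label, so all cells counted as 1 sample, no conditions were compared and no test was made. Libraries are given side by side to show how far a level varied, and they are not replicates of a condition.

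VEGF-A binds the receptors encoded by Flt1 and Kdr, of which Kdr carries most of the growth and permeability signal in blood vessels while Flt1 binds VEGF-A tightly and signals weakly. VEGF-C acts mainly through Flt4, the receptor that lymphatic vessels need, and Nrp1 is a co-receptor that strengthens VEGF-A binding to Kdr. Angiopoietin-1, the product of Angpt1, is made by the cells around vessels and activates Tek (also called TIE2), which keeps endothelium quiescent, and Tie1 is a related receptor with no well-established high-affinity angiopoietin ligand that modulates Tek. In the alveolus, VEGF-A from the flat alveolar type 1 epithelium is known to act on the thin capillary cells called aerocytes (gas-exchange capillary cells), which lie beside the general capillary cells that renew the bed.

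Cells were grouped by clustering with the 9 genes and 20 further pathway genes left out of the clustering, and a cluster was called after a cell type, with the ending "-like", where its markers allowed it. The classes used most were 963 general capillary-like, 344 aerocyte-like, 382 large-vessel endothelial-like (arteries and veins together), 135 lymphatic endothelial-like, 713 alveolar fibroblast-like, 172 adventitial fibroblast-like, 44 pericyte-like, 155 smooth muscle-like, 22 alveolar type 1-like and 313 alveolar type 2-like cells. The leading genes of the aerocyte-like cluster included Apln, Ednrb and Fibin from its marker list, and those of the general capillary-like clusters included Aplnr and Kit. Clusters without a clear name held 3552 cells, of which 1257 lay in clusters where over 25% of cells carried markers of more than 1 lineage. The 4 libraries held 3301 to 7626 kept cells with a median of 6800 to 8364 UMIs. Of the kept cells, 100 carried a barcode sequence also found in another of the 4 libraries. A level is the gene's UMIs scaled to 1000000 UMIs of the class (CPM), with an exact 95% Poisson interval. A share of cells with a UMI is given after each cell was thinned to 1500 UMIs, with an exact 95% binomial interval. Intervals cover counting error only, not the spread between mice. T cell-like and B cell-like cells, in which RNA released by other cells gives a background, held 5.76 and 3.81 CPM of Vegfa, 2.81 and 0.923 CPM of Kdr and 1.33 and 1.38 CPM of Tek.

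**Figure D1:**
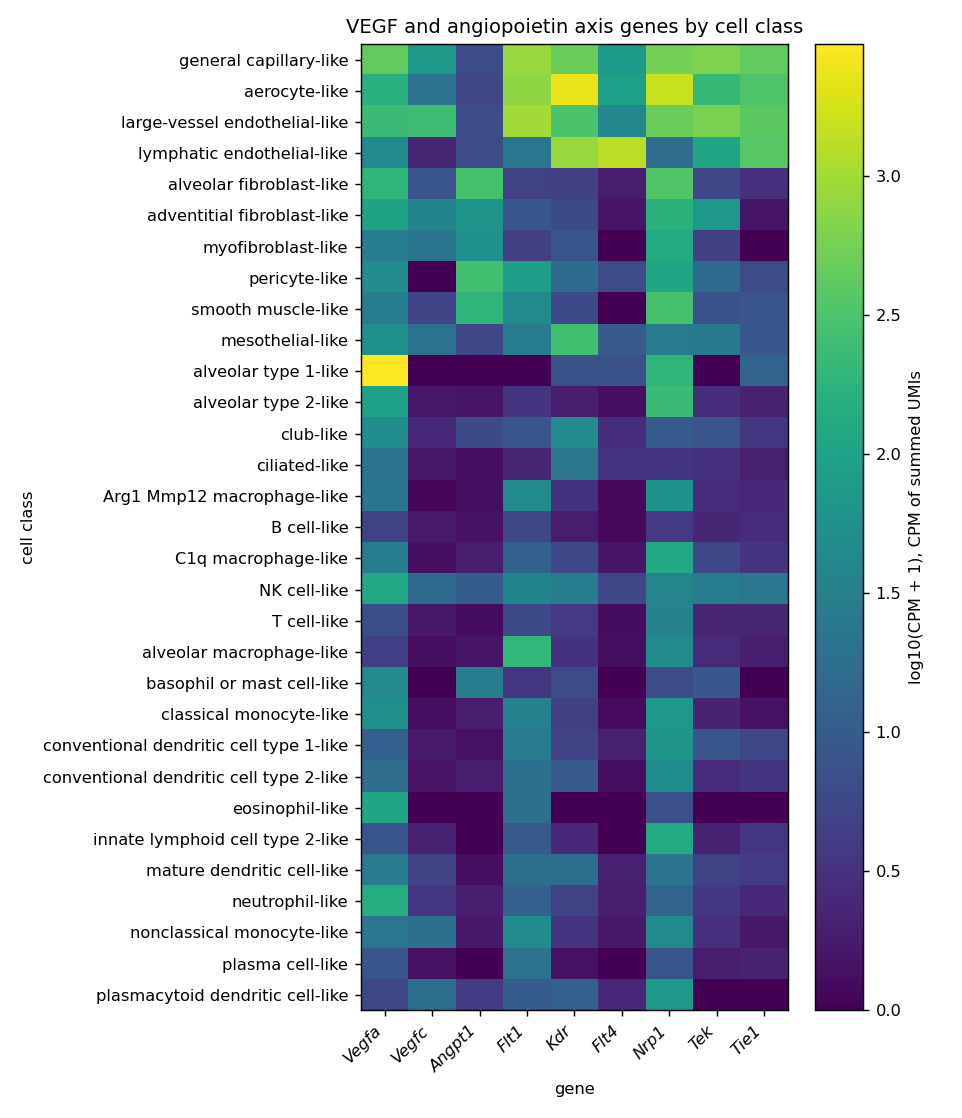
Level of each gene (columns) in each named cell class (rows), as log10(CPM + 1) of the UMIs summed over libraries 1, 2, 3 and 7. Colours are to be read down a column, and the brightest cell of each column lies in the alveolar type 1-like class for Vegfa, the alveolar fibroblast-like class for Angpt1 and an endothelial class for the other 7 genes.

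Of the ligands, Vegfa was highest in alveolar type 1-like cells, Vegfc in large-vessel endothelial-like cells and Angpt1 in alveolar fibroblast-like cells. Vegfa, the main angiogenic ligand, reached 2974 CPM (95% interval 2714 to 3253) in the 22 alveolar type 1-like cells. These cells came as 2, 10, 4 and 6 cells from libraries 1, 2, 3 and 7, with 5047, 2409, 9617 and 1200 CPM. Every one of those values was above every library value of any other class with at least 20 cells in a library, although each rests on few cells. The level depended on how the class was drawn, with 652 CPM when cells were gated by markers and 965 CPM when the members were kept for clustering. The next levels among named classes were 434 CPM in general capillary-like cells (463.8, 405, 431 and 532 CPM in libraries 1, 2, 3 and 7), 229.7 CPM in large-vessel endothelial-like cells (227, 224, 209 and 319.5 CPM) and 186 CPM in alveolar fibroblast-like cells (259, 153, 346 and 138 CPM). General capillary-like cells were above large-vessel endothelial-like cells in all 4 libraries with no overlap. The range of alveolar fibroblast-like cells overlapped with those of large-vessel endothelial-like and aerocyte-like cells (221, 150.2, 169 and 115.5 CPM). Within each library alveolar fibroblast-like cells were above aerocyte-like cells, though barely in library 2. Against large-vessel endothelial-like cells their order changed between libraries. The order of general capillary-like and large-vessel endothelial-like cells holds for whole classes only. Endothelial clusters with artery-list genes among their leading genes lay above the general capillary-like level, as given below. Alveolar type 2-like cells, the surfactant-making epithelium, held 97.1 CPM (77.0, 109, 77.6 and 131 CPM). Neutrophil-like cells held 141 CPM (91.1 to 172 CPM over 4 libraries), which is above the T cell-like and B cell-like background.

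In thinned cells, Vegfa was found in 82.4% (56.6 to 96.2) of 17 alveolar type 1-like cells, 45.4% (42.0 to 49.0) of general capillary-like cells, 24.3% of alveolar fibroblast-like cells, 13.6% of aerocyte-like cells and 11.5% of alveolar type 2-like cells. The same share was 1.21% in T cell-like and 0.871% in B cell-like cells. Before thinning it was 86.4% in alveolar type 1-like and 69.0% in alveolar type 2-like cells, whose median depths were 4808.5 and 17160 UMIs, against 3.11% in T cell-like cells with a median of 6048.5 UMIs. The order of the epithelial classes was thus the same before and after thinning, while their distance was larger at equal depth.

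Vegfc, the lymphangiogenic ligand, reached 245 CPM (228 to 264) in large-vessel endothelial-like cells, with 223, 276, 189 and 184 CPM in libraries 1, 2, 3 and 7. General capillary-like cells held 75.0 CPM (43.0, 98.1, 60.5 and 88.7 CPM), below the large-vessel values in every library and with no overlap. Adventitial fibroblast-like cells, the collagen-rich fibroblasts around airways and vessels, held 36.3 CPM (28.1 to 46.2), and aerocyte-like cells held 20.3 CPM (17.5, 25.3, 5.99 and 40.2 CPM). Adventitial fibroblast-like cells held 33.6 and 39.5 CPM in libraries 2 and 3, the 2 libraries with at least 20 of them. Both values were above the aerocyte-like cells of the same library and below the 40.2 CPM of aerocyte-like cells in library 7. Nonclassical monocyte-like cells, the patrolling blood monocytes, held 17.6 CPM (14.97 to 20.45) from 164 UMIs, with 11.7 to 23.3 CPM over 4 libraries, whereas classical monocyte-like cells were at 0.375 CPM. No Vegfc UMI was found in pericyte-like or alveolar type 1-like cells, which allows up to 15.6 and 18.6 CPM, and lymphatic endothelial-like cells held 2 UMIs (1.32 CPM).

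Angpt1, the activating ligand of Tek, was highest in mesenchymal classes among those named. It stood at 286 CPM (272 to 299.9) in alveolar fibroblast-like, 260.3 CPM (193 to 343) in pericyte-like, 188 CPM (166 to 212) in smooth muscle-like, 61.7 CPM (50.8 to 74.2) in adventitial fibroblast-like and 56.5 CPM (32.3 to 91.8) in myofibroblast-like cells. Alveolar fibroblast-like cells held 249, 284, 258 and 457 CPM in libraries 1, 2, 3 and 7, and pericyte-like cells held 232 CPM in library 2, where alone they numbered at least 20. The alveolar fibroblast-like and pericyte-like levels differed by less than their counting error. Smooth muscle-like cells held 225 and 91.2 CPM in libraries 2 and 3. The 4 endothelial classes held 4.52 to 5.36 CPM from 8 to 26 UMIs each, against 0.296 and 0.462 CPM in T cell-like and B cell-like cells. Basophil or mast cell-like cells held 28.4 CPM (14.2 to 50.9) from 11 UMIs. No cluster was named megakaryocyte or platelet. When single cells were gated by markers, that class held 203 CPM, next to 222 CPM in alveolar fibroblast-like cells.

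**Figure D2:**
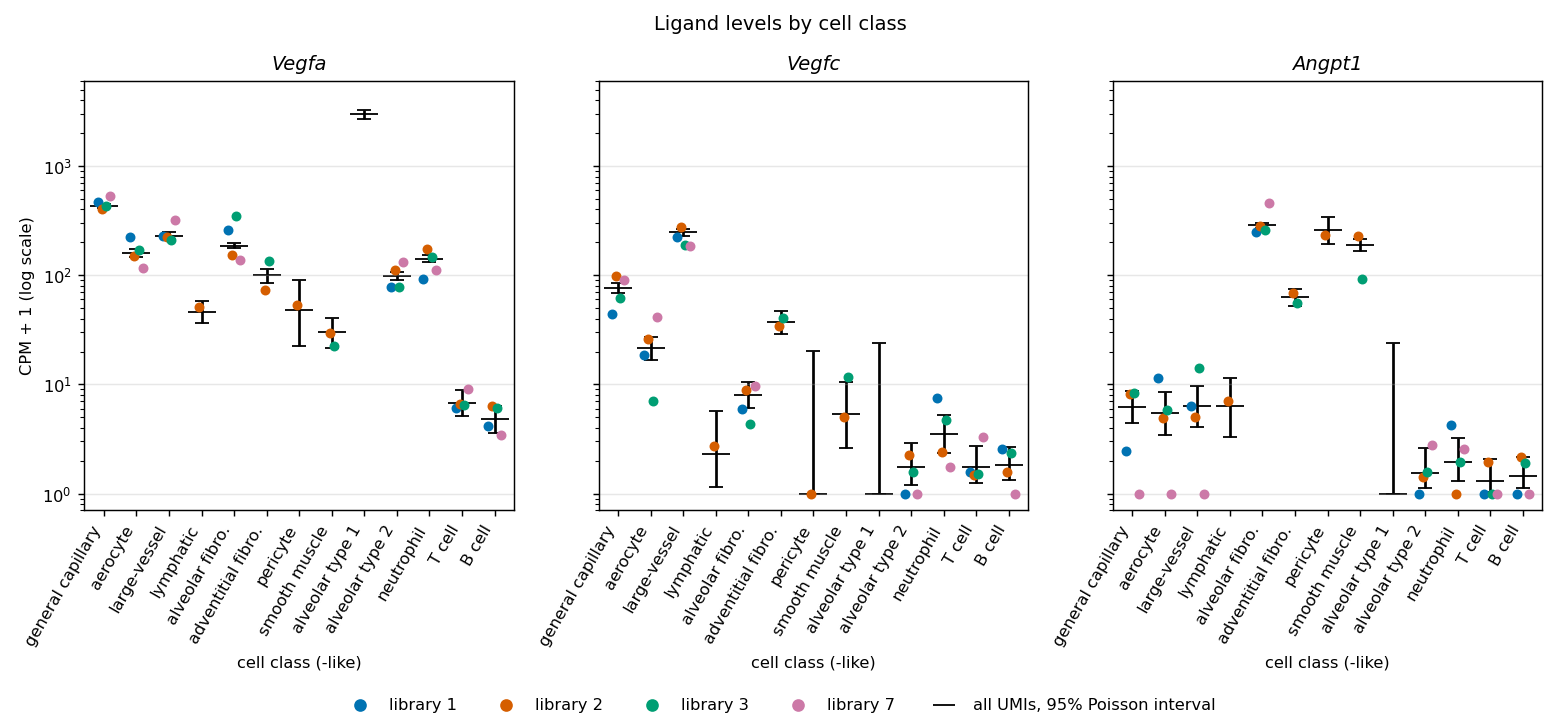
Levels of Vegfa, Vegfc and Angpt1 (CPM + 1, log scale) in 13 cell classes, with black dashes for all UMIs of the class, bars for the exact 95% Poisson interval and coloured points for each library with at least 20 cells of the class. Vegfa peaked at 2974 CPM in alveolar type 1-like cells, Vegfc at 245 CPM in large-vessel endothelial-like cells and Angpt1 at 286 CPM in alveolar fibroblast-like cells, and a point at 1 stands for a library with no UMI.

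The share of a ligand's UMIs that came from each compartment depends on how many cells of it were caught. Of 16365 Vegfa UMIs, 42.9% came from endothelial clusters (35.2% to 46.5% over the 4 libraries), 18.9% from immune and other cells, 11.9% from mesenchymal clusters, 7.31% from epithelial clusters and 19.0% from clusters of mixed lineages. The 22 alveolar type 1-like cells gave 2.93% of Vegfa UMIs from 0.105% of cells. Of 2543 Vegfc UMIs, 58.1% were endothelial and 10.8% mesenchymal, and 28.8% came from large-vessel endothelial-like cells alone, which were 1.83% of cells. Of 4262 Angpt1 UMIs, 76.8% were mesenchymal (67.9% to 79.7% over the 4 libraries) and 2.37% endothelial. The largest share in a single compartment was thus smallest for Vegfa and largest for Angpt1 among these 3 ligands. Clusters without a name held 45.7% of Vegfa, 37.7% of Vegfc and 46.6% of Angpt1 UMIs, from 17.0% of cells. The levels of named classes leave these UMIs out, while the compartment shares include them.

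Of the receptors, Kdr and Nrp1 were highest in aerocyte-like cells, Flt4 in lymphatic endothelial-like cells, Tek and Tie1 in general capillary-like cells and Flt1 in large-vessel endothelial-like cells. Kdr, the main signalling receptor of VEGF-A, stood at 2328 CPM (2274 to 2382) in aerocyte-like cells, with 2379, 2154, 2567 and 2802 CPM in libraries 1, 2, 3 and 7. It was 868 CPM (822 to 916) in lymphatic endothelial-like, 493 CPM (473 to 513) in general capillary-like and 306 CPM (287 to 327) in large-vessel endothelial-like cells. General capillary-like cells held 478, 439, 563 and 781 CPM and large-vessel endothelial-like cells 355, 298, 311 and 236 CPM in the same libraries. Lymphatic endothelial-like cells held 794 CPM in library 2 and 1127, 957 and 1597 CPM from the 10, 15 and 3 cells of libraries 1, 3 and 7. Every aerocyte-like value was above all of these, and general capillary-like cells did not overlap with large-vessel endothelial-like cells. At equal depth, a Kdr UMI was found in 93.7% (90.4 to 96.1) of aerocyte-like, 62.4% of lymphatic endothelial-like, 47.9% of general capillary-like and 33.5% of large-vessel endothelial-like cells, and in 0.11% of T cell-like cells. Outside endothelium the highest Kdr level was in the 53 mesothelial-like cells, the lining of the lung surface, at 260.9 CPM (229 to 296). It was 236 CPM there when cells with markers of more than 1 lineage were left out, while Tek went from 24.3 to 1.39 CPM in the same cells. Club-like airway cells held 43.5 CPM of Kdr (36.1 to 52.0).

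Flt1, the high-affinity VEGF-A receptor, differed little among blood endothelial classes. It stood at 991 CPM (956 to 1027) in large-vessel endothelial-like, 862 CPM (836 to 888) in general capillary-like and 776 CPM (746 to 808) in aerocyte-like cells, and the library ranges of the 3 classes overlapped (892 to 1401, 779.9 to 1490.4 and 723 to 1075 CPM). Library 7 held the highest Flt1 level of all 4 libraries in each of these classes. Within every library, however, aerocyte-like cells were below both other classes. They stood at 0.927, 0.894, 0.907 and 0.721 times the general capillary-like level in libraries 1, 2, 3 and 7. Lymphatic endothelial-like cells held 22.4 CPM from 34 UMIs. Alveolar macrophage-like cells held 197 CPM of Flt1 (191 to 203), with 252, 161, 196 and 106 CPM in libraries 1, 2, 3 and 7. A Flt1 UMI was found in 24.7% (22.6 to 26.8) of them at equal depth and in 71.6% before thinning, at a median of 12638 UMIs, against 0.33% and 2.25% of T cell-like cells. Their level was 197 CPM also without cells of more than 1 lineage, with Kdr at 1.46 CPM in the same cells.

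Flt4, the VEGF-C receptor, stood at 1306 CPM (1249 to 1365) in lymphatic endothelial-like cells, against 92.3 CPM in aerocyte-like, 76.6 CPM in general capillary-like and 39.2 CPM in large-vessel endothelial-like cells. The 10, 107, 15 and 3 lymphatic endothelial-like cells of libraries 1, 2, 3 and 7 held 1244, 1257, 1783 and 1124 CPM, so that even the libraries with few such cells lay above all others. Aerocyte-like (60.3 to 111 CPM) and general capillary-like cells (66.4 to 112 CPM) overlapped. In thinned cells Flt4 was found in 82.0% (74.4 to 88.1) of lymphatic endothelial-like, 15.2% of aerocyte-like and 10.4% of general capillary-like cells.

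Nrp1, the co-receptor, was the member with the widest distribution among these cells. It stood at 1533 CPM (1490 to 1577) in aerocyte-like cells, with 1495, 1446, 1687 and 1718 CPM in libraries 1, 2, 3 and 7. General capillary-like cells held 562 CPM (541 to 583), large-vessel endothelial-like cells 498 CPM, alveolar fibroblast-like cells 338 CPM, smooth muscle-like cells 285 CPM, alveolar type 2-like cells 229 CPM (217 to 243) and alveolar type 1-like cells 192 CPM (131 to 273). Aerocyte-like cells did not overlap with any of these classes, while general capillary-like (498 to 919 CPM) and large-vessel endothelial-like cells (453 to 534 CPM) did overlap. Within each library large-vessel endothelial-like cells were still the lower. They stood at 0.971, 0.923, 0.789 and 0.581 times the general capillary-like level in libraries 1, 2, 3 and 7. Lymphatic endothelial-like cells were at 16.5 CPM, and B cell-like cells at 2.77 CPM. T cell-like cells held 33.4 CPM (29.2 to 38.0), so they give no clean background for Nrp1.

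Tek, the angiopoietin receptor, stood at 633 CPM (611 to 656) in general capillary-like and 585 CPM (558 to 613) in large-vessel endothelial-like cells, and the library values of these classes overlapped. Aerocyte-like cells held 209.9 CPM (194 to 227), with 207, 192, 274 and 100.4 CPM in libraries 1, 2, 3 and 7, all below the 578.5, 613, 771 and 610.4 CPM of general capillary-like cells. Lymphatic endothelial-like cells held 112 CPM (95.8 to 130.2) and adventitial fibroblast-like cells 70.5 CPM (58.8 to 83.8). Tie1 was the most even member over endothelium, with 437 CPM (419 to 456) in general capillary-like, 399.5 CPM in large-vessel endothelial-like, 377 CPM in lymphatic endothelial-like and 324 CPM (304 to 345) in aerocyte-like cells. Aerocyte-like cells (310.5 to 351 CPM) lay below the general capillary-like cells (394 to 593 CPM) with no overlap, and also below the large-vessel endothelial-like cells (353 to 525 CPM) and the 378 CPM of the lymphatic cells in library 2. General capillary-like, large-vessel endothelial-like and lymphatic endothelial-like cells were not separated in Tie1, since the range of large-vessel endothelial-like cells overlapped with the range or value of the others. Every other named class with at least 50 cells held at most 22.1 CPM of Tie1. That value was in natural killer (NK) cell-like cells, where no Tie1 UMI remained when cells of more than 1 lineage were left out.

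**Figure D3:**
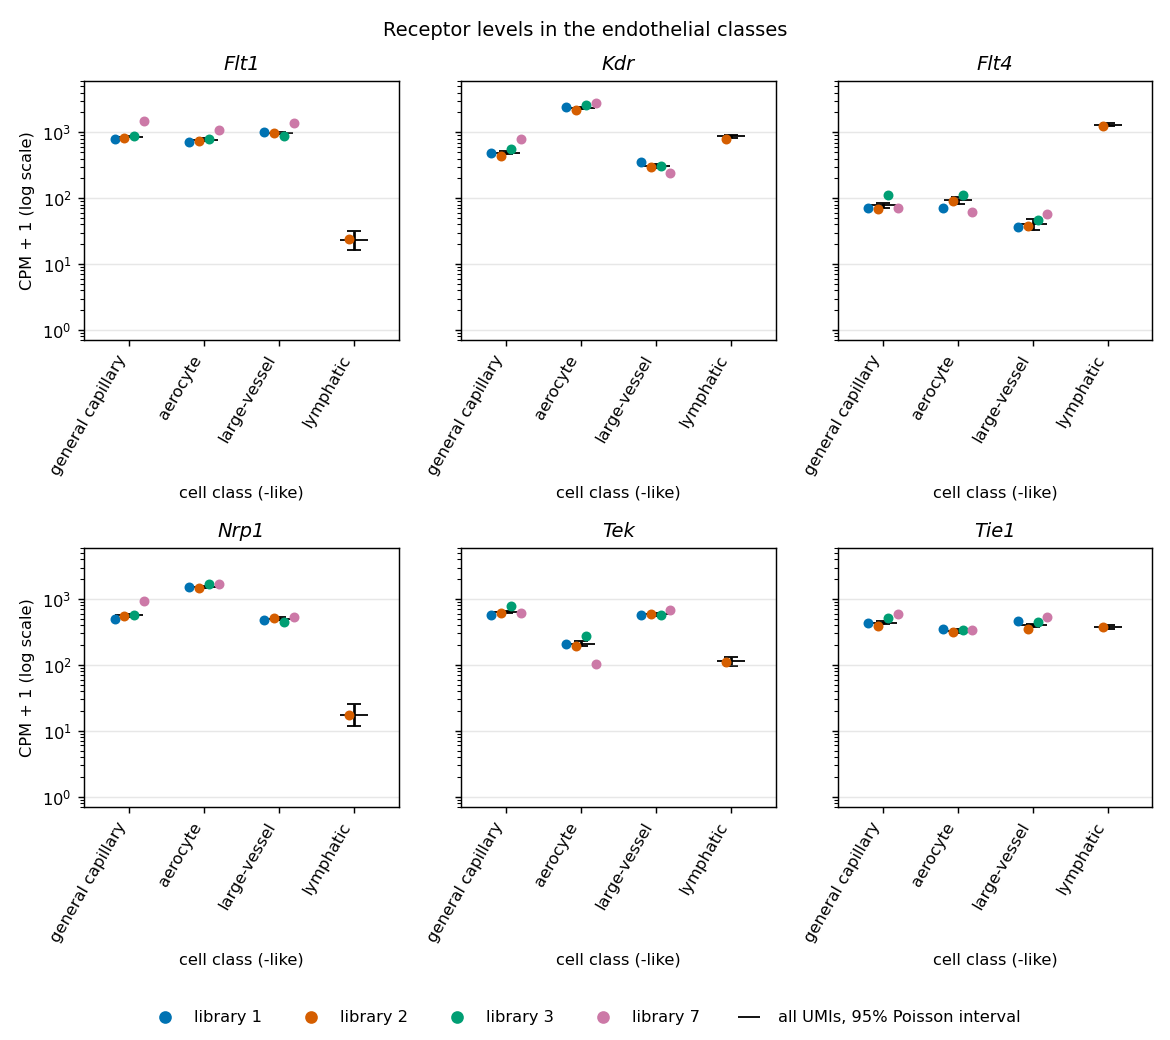
Levels of the 6 receptor genes (CPM + 1, log scale) in the 4 endothelial classes, with black dashes for all UMIs of the class, bars for the exact 95% Poisson interval and coloured points for each library with at least 20 cells of the class. Kdr and Nrp1 were highest in aerocyte-like cells at 2328 and 1533 CPM, and Flt4 in lymphatic endothelial-like cells at 1306 CPM. Tek was lower in aerocyte-like than in general capillary-like and large-vessel endothelial-like cells in each of the 4 libraries.

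The genes lie on the GRCm38 assembly at chr17:46016993-46032369 (Vegfa, minus strand), chr8:54077606-54187096 (Vegfc, plus), chr15:42424723-42676977 (Angpt1, minus), chr5:147561604-147726011 (Flt1, minus), chr5:75932827-75978458 (Kdr, minus), chr11:49609263-49652739 (Flt4, plus), chr8:128358604-128503363 (Nrp1, plus), chr4:94739289-94874976 (Tek, plus) and chr4:118471191-118490061 (Tie1, minus). The promoter windows of Kdr, Tek and Flt1, receptor genes that endothelium shared but that differed among its classes, are shown because they stand for the 3 patterns above: high in aerocyte-like cells, low in aerocyte-like cells and even over blood endothelium. Each is the 250 bases before the RefSeq start on GRCm38.p6, written 5′ to 3′ on the strand of the gene, namely chr5:75978456-75978705 (Kdr, minus strand), chr4:94739039-94739288 (Tek, plus strand) and chr5:147726012-147726261 (Flt1, minus strand). All lie upstream of the annotated gene apart from 3 bases of the Kdr window. Capitals mark CAGGAA or CCGGAA on either strand, cores that ETS factors, a family active in endothelium, can bind, and the motifs do not overlap.
Kdr: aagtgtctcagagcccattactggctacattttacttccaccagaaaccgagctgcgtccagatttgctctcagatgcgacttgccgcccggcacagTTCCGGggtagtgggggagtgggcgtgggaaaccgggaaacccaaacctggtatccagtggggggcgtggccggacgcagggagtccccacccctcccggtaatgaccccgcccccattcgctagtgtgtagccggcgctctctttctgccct
Tek: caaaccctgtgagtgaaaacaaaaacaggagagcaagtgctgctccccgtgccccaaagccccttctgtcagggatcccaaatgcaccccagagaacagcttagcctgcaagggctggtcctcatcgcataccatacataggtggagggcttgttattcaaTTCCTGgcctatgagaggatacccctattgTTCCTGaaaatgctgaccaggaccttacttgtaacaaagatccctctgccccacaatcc
Flt1: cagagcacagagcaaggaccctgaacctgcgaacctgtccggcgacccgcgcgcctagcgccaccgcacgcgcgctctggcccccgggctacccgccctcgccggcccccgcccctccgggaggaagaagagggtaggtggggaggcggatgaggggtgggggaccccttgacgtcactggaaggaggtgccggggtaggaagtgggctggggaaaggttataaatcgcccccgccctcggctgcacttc
The Kdr window held 1 CCGGAA, starting 153 bases before the start, the Tek window 2 CAGGAA, at 89 and 59 bases before it, and the Flt1 window neither. Either core occurred in 35.1% of 32851 promoter windows of the same length, so these matches are common and are descriptions, not sites. Windows were found for 8 of the 9 members, and ACGTG, the core of the hypoxia response element, occurred on neither strand in any of the 8, against 16.6% of all windows, which says only that these letters are not in these windows.

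Classes were then compared in pairs. A gene was counted as higher or lower where its CPM differed by at least 2-fold, the higher class had at least 10 CPM and every library with at least 20 cells of both classes differed in that direction. Folds carry exact 95% intervals for counting error. The members were chosen with earlier results of these data known, and the naming rule was set after member values were seen. Shares over all genes are therefore given only as a setting for the counts and are not a test. Aerocyte-like cells differed from general capillary-like cells in 5 of the 9 members, against 8.97% of all 8974 genes with at least 10 CPM in either class (4.31% higher, 4.66% lower). Kdr was 4.72-fold higher (4.51 to 4.95), with 4.98-, 4.91-, 4.56- and 3.59-fold in libraries 1, 2, 3 and 7, and Nrp1 was 2.73-fold higher (2.60 to 2.86), with 1.87- to 3.001-fold over the libraries. Tek was 3.02-fold lower (2.77 to 3.29), with 2.79- to 6.08-fold over the libraries. The ligands were lower as well, Vegfa by 2.72-fold (2.46 to 3.003) and Vegfc by 3.69-fold (2.82 to 4.90). Flt1, Tie1 and Flt4 lay within 2-fold, at 0.900, 0.742 and 1.21 times the general capillary-like level, and Angpt1 was under 10 CPM in both classes. Aerocyte-like cells thus had higher CPM of Kdr and Nrp1 and lower CPM of Tek, Vegfa and Vegfc, while the CPM of Flt1 was not higher. CPM is a share of UMIs and not an amount per cell. The median depth was 7831 UMIs in aerocyte-like and 4216 UMIs in general capillary-like cells. Of the 20 further pathway genes none was higher and 3 were lower: Nrp2, a co-receptor for VEGF-C, by 4.74-fold, Ptprb, the endothelial phosphatase that restrains Tek, by 2.67-fold, and Esm1, a secreted product of VEGF-stimulated endothelium, by 4.54-fold. The Esm1 fold was 2.62 without library 7, whose 44 general capillary-like cells held 348 CPM, and 7.91 without library 3. On the log2(CPM + 1) scale, which is also used for the later medians, the median log2 fold was −0.17 over the 9 members, −0.20 over the pathway genes and −0.02 over all genes tested. Here and later, list medians include genes under 10 CPM in both classes, whereas the median over genes tested does not. The members' median here is the value of Angpt1, which was under 10 CPM in both classes.

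**Figure D4:**
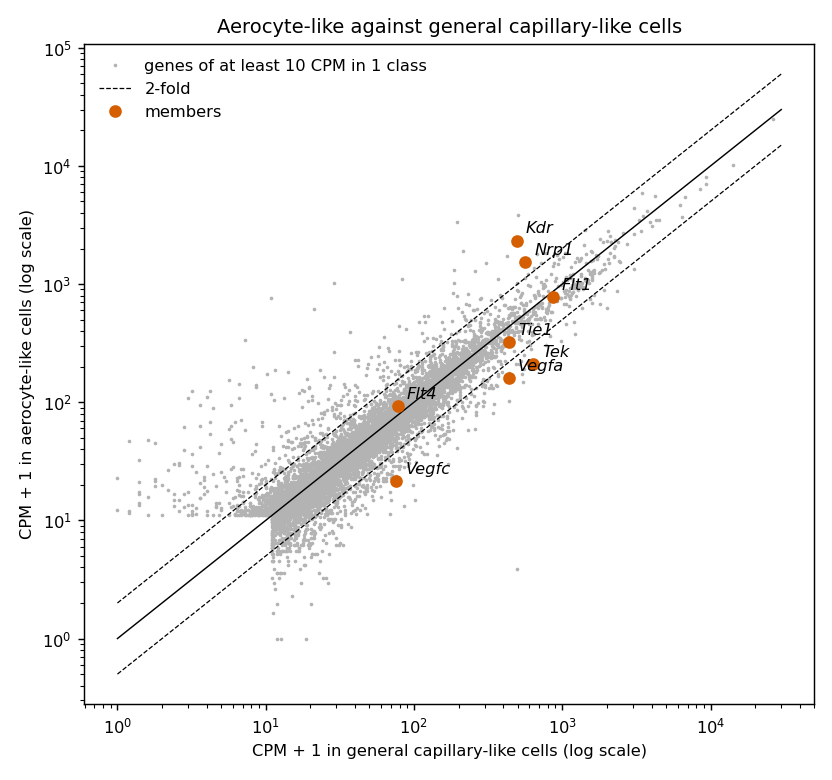
Level of each gene in general capillary-like cells (x axis) and aerocyte-like cells (y axis) as CPM + 1 on log scales, for the 8974 genes with at least 10 CPM in either class (grey) and the members above that floor (orange). Kdr and Nrp1 lie above the dashed 2-fold line, Tek, Vegfa and Vegfc below the other, and Flt1, Tie1 and Flt4 between them.

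Large-vessel endothelial-like cells differed from general capillary-like cells in 1 of the 9 members, against 7.43% of 9088 genes tested (4.31% higher, 3.11% lower). Of these members, 8 had at least 10 CPM in either class. Vegfc was 3.27-fold higher (2.88 to 3.72), with 5.19-, 2.81-, 3.13- and 2.07-fold in libraries 1, 2, 3 and 7. Flt4 (1.96-fold lower, 1.59 to 2.43) and Vegfa (1.89-fold lower, 1.73 to 2.06) lay just inside 2-fold and were lower in all 4 libraries, and Flt4 passed the rule when library 7 was left out. Kdr was 1.61-fold lower, and Tek, Tie1, Flt1 and Nrp1 stood at 0.924, 0.914, 1.15 and 0.886 times the general capillary-like level. Among the pathway genes Nrp2 was 4.79-fold higher, and Esm1 (3.05-fold) and Dll4 (2.26-fold), a Notch ligand of sprouting and arterial endothelium, were lower. Esm1 was 1.73-fold lower and did not pass without library 7, and was 5.17-fold lower without library 2. The median log2 fold was −0.13 over the members and −0.07 over all genes tested.

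The members also varied among clusters inside these classes, which were named here by their leading genes and picked after their values were seen, so they are descriptions. Within the large-vessel class, the 276 cells led by Slc6a2, Selp and Prss23, from the vein list, held 309 CPM of Vegfc (287 to 333) and 124 CPM of Vegfa (110.4 to 139.6). The 106 cells led by Olfm2 and by Gja5, from the artery list, held 21.1 CPM of Vegfc (11.6 to 35.5) and 599.5 CPM of Vegfa (542 to 662). In libraries 2 and 3, which had at least 20 cells of both clusters, Vegfc was 345 and 279 CPM in the Slc6a2 cluster against 31.4 and 6.63 CPM in the Olfm2 cluster, and Vegfa was 135.0 and 77.7 CPM against 539.7 and 477.5 CPM. The class value for Vegfc therefore stands for the Slc6a2 cluster, and the 2 ligands were opposite in level between these clusters. For Vegfa the class value lies between unlike clusters, and the Olfm2 cluster was above the 434 CPM of the general capillary class. The lower Vegfa of the large-vessel class thus does not hold for its artery-list cluster. An endothelial cluster of 283 cells, led by Hey1 and Efnb2 from the artery list and left unnamed because its leading genes went against its best list (general capillary), held 805 CPM of Vegfa (761 to 851) and 2.56 CPM of Vegfc from 4 UMIs. Within the general capillary class, the 116 cells led by Tcf15 held 806 CPM of Kdr (746 to 870.1) and 341.5 CPM of Tek (303 to 384), against 438 CPM and 686 CPM in the 529 cells led by Sox11 and Aplnr. Vegfa was 172 CPM in the Tcf15 cluster and 460.1 CPM in that larger cluster.

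**Figure D5:**
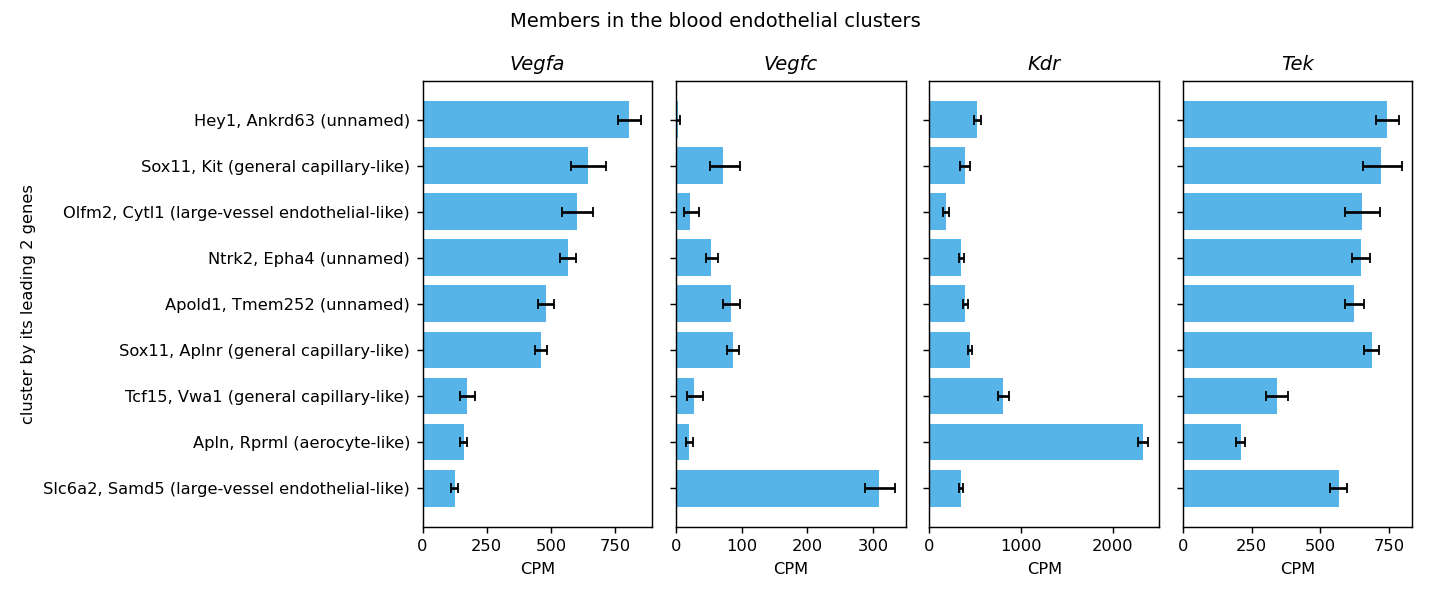
Levels of Vegfa, Vegfc, Kdr and Tek (CPM, bars) in the 9 blood endothelial clusters, each given by its 2 leading genes with its class name in brackets, and exact 95% Poisson intervals. Vegfc reached 309 CPM in the cluster led by Slc6a2 and Vegfa 805 CPM in the cluster led by Hey1, while Kdr reached 2328 CPM in the aerocyte-like cluster led by Apln.

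Lymphatic endothelial-like cells differed from the 1689 blood endothelial-like cells (general capillary-like, aerocyte-like and large-vessel endothelial-like together) in 6 of the 9 members, against 23.3% of 9533 genes tested (11.2% higher, 12.1% lower). Only library 2 had at least 20 lymphatic cells, so a single library carries the direction. Flt4 was 18.4-fold higher (16.94 to 20.02). Nrp1 was 49.5-fold lower (33.5 to 76.6), Flt1 38.9-fold lower (27.8 to 56.3), Vegfa 6.64-fold lower (5.23 to 8.55) and Tek 4.48-fold lower (3.84 to 5.25). Vegfc, the ligand of Flt4, was 80.2-fold lower (22.1 to 663) from 2 UMIs against 1170. Kdr and Tie1 stood at 0.908 (0.857 to 0.962) and 0.954 (0.873 to 1.04) times the blood endothelial-like level, and Angpt1 was under 10 CPM in both groups. The Kdr ratio is to a pool of unlike classes, since the 868 CPM of lymphatic cells lay between the 2328 CPM of aerocyte-like and the 493 and 306 CPM of general capillary-like and large-vessel endothelial-like cells. Of the pathway genes 4 were higher: Nrp2 by 16.3-fold (1075 against 66.1 CPM), Angpt2, the vessel-destabilising angiopoietin, by 7.27-fold (10.9-fold without library 3), Pgf, a ligand of Flt1, from 0.813 to 92.9 CPM, and Vegfb, a further Flt1 ligand, by 2.82-fold. Ptprb (6.997-fold), the oxygen-regulated transcription factor gene Epas1 (18.2-fold) and Esm1 (no UMI against 312) were lower. The median log2 fold was −2.15 over the members and 0.03 over all genes tested.

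The alveolar type 1-like and type 2-like cells could not be compared by the rule, because no library held 20 alveolar type 1-like cells. As a description, Vegfa was 30.6-fold higher (27.0 to 34.7) in alveolar type 1-like cells, from 479 UMIs against 526, and it was higher in each of the 4 libraries. Of the other members, Nrp1 alone was above 10 CPM in alveolar type 2-like cells, at 229 CPM against 192 CPM, and Kdr, Flt4 and Tie1 in alveolar type 1-like cells rest on 1 or 2 UMIs. When the rule was applied to libraries with at least 2 cells of both classes, a choice made after the cells were counted, Vegfa was the only member to pass, against 20.6% of 9209 genes (10.8% higher, 9.79% lower). Only 3 members had at least 10 CPM in either class. Nrp2 and Itgb1, an integrin subunit, passed as higher and Epas1 and Plcg1, a signal enzyme downstream of Kdr, as lower.

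Pericyte-like cells, the mural cells of capillaries, differed from alveolar fibroblast-like cells in 5 of the 9 members, against 37.7% of 10015 genes tested (22.1% higher, 15.6% lower), and library 2 alone gave the direction. Only 6 of the members had at least 10 CPM in either class and could be called. Flt1 was 23.3-fold higher (11.6 to 46.0) from 17 UMIs in 44 pericyte-like cells, 16 of them in library 2, and its level was 49.7 CPM in place of 88.5 CPM when the 5 cells with markers of more than 1 lineage were left out. Kdr (4.31-fold, 0.824 to 14.4) and Tek (3.48-fold, 0.675 to 11.4) passed as higher on 3 pericyte-like UMIs each, and their intervals include 1. Kdr did not pass without those 5 cells. Nrp1 was 3.09-fold lower (2.02 to 5.01) and Vegfa 3.97-fold lower (2.08 to 8.70), and both were higher under 2 other ways of defining pericyte-like cells, at log2 folds of 0.13 and 0.20 with marker gates and of 0.69 and 0.98 with a looser limit on mixed clusters. Angpt1 stood at 0.911 times the alveolar fibroblast-like level (0.673 to 1.21). Of the pathway genes 6 were higher (Pgf, Angpt2, Ptprb, Itgb1, Adamts3 and Epas1), with Epas1 at 1431 against 79.5 CPM and Angpt2 at 161 against 61.2 CPM. Adamts3 rests on 2 pericyte-like UMIs (0.994 to 56.3 for its fold) and did not pass without library 3. The 5 that were lower included Vegfd, a ligand of Flt4, at 26.0 against 404 CPM, and Svep1, a large extracellular matrix protein needed for lymphatic vessels, at 78.1 against 253.7 CPM, with Vegfb, Nrp2 and Ccbe1 as the others. Vegfb rests on 3 pericyte-like UMIs (0.994- to 14.3-fold lower), so that its interval includes 1, and Nrp2 was 1.93-fold lower and did not pass without library 3. The median log2 fold was 1.10 over the 9 members and 0.25 over all genes tested. The former is the value of Tie1, which was under 10 CPM in both classes and rests on 1 pericyte-like UMI. It therefore does not describe the list.

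Adventitial fibroblast-like cells differed from alveolar fibroblast-like cells in 4 of the 9 members, against 20% of 9383 genes tested (9.88% higher, 10.1% lower), with libraries 2 and 3 giving the direction. Only 5 of the members had at least 10 CPM in either class. Vegfc was 5.14-fold higher (3.43 to 7.79), at 33.6 against 7.83 CPM in library 2 and 39.5 against 3.36 CPM in library 3. Tek was 15.7-fold higher (10.26 to 24.99), at 44.0 against 3.80 CPM and 101 against 7.83 CPM in the same libraries, and Angpt1 was 4.63-fold lower (3.83 to 5.66). The log2 fold of Vegfc, 2.36, was 3.11 without library 2, 1.20 with marker gates and 1.49 with unnamed clusters joined to their best class. That of Angpt1, −2.21, was −1.26 and −1.32 under the last 2 of these settings. Nrp1 was 2.001-fold lower (1.77 to 2.26), at the threshold itself, and did not pass without library 3 or without library 7, at log2 folds of −0.83 and −0.96. Vegfa was 1.89-fold lower (1.61 to 2.22) in all cells of both classes and did not pass, although it was 2.10-fold lower in library 2 (72.9 against 153 CPM) and 2.61-fold lower in library 3 (132.5 against 346 CPM). The libraries contributed unequally, with 524 of 713 alveolar fibroblast-like cells from library 2 and 86 and 78 of 172 adventitial fibroblast-like cells from libraries 2 and 3. Within the class, the 42 cells led by Dkk2, Cd248 and Pi16, of which 29 came from library 3, held 162 CPM of Tek (130.1 to 198), against 29.5 CPM (20.8 to 40.7) in the 130 cells led by Cilp. In the Dkk2 cluster the endothelial receptor genes Tie1 and Kdr had 0 and 1 UMIs, against 91 of Tek. With classes set by marker gates in single cells, the log2 fold of Tek was 0.53 in place of 3.98 and did not pass. Of the pathway genes, Pgf was higher (35.8 against 0.517 CPM, the latter from 3 UMIs) and Vegfd (2.74-fold), Angpt2 (6.54-fold, or 3.46-fold without library 2), Nrp2 (4.06-fold) and Epas1 (3.36-fold) were lower. The median log2 fold was −0.26 over the members and −0.09 over all genes tested. The former is the value of Flt4, which was under 10 CPM in both classes, with 1 UMI against 5.

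The remaining mesenchymal clusters also differed in Angpt1. The 75 smooth muscle-like cells led by Col8a1 and Notch3 held 338 CPM (290 to 392), against 99.4 CPM (79.5 to 122.7) in the 80 cells led by Actc1. In library 2, the only library with at least 20 cells of both clusters, the values were 359.7 and 124.6 CPM. Notch3 is also a pericyte marker. Unnamed fibroblast clusters led by Gdf10 (421 cells) and by Adamts4 (187 cells) held 143 and 122 CPM of Angpt1, between the alveolar fibroblast-like and adventitial fibroblast-like levels.

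Receptors were also found together in single cells at equal depth. Kdr and Nrp1 were both found in 85.8% (81.4 to 89.4) of 316 aerocyte-like cells, where independent detection would give 84.8%, and in 25.2% (22.2 to 28.4) of 801 general capillary-like cells, where it would give 25.1%. Kdr and Flt4 were both found in 51.1% (42.3 to 59.9) of 133 lymphatic endothelial-like cells, against 51.1% for independent detection. Tek and Tie1 were both found in 28.8% of general capillary-like and 7.28% of aerocyte-like cells, against 27.6% and 6.31%. Vegfa and Kdr, a ligand and its receptor, were both found in 20.2% (17.5 to 23.2) of general capillary-like cells, against 21.8%. Within each class the joint shares therefore lay within their counting error of independent detection. For Kdr and Nrp1 in aerocyte-like cells this says little. They were found in 93.7% and 90.5% of those cells, which leaves the joint share little room to differ.

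Across the 28 named classes with at least 50 cells, the gene most like each member in log2(CPM + 1), among 13988 genes, was Agrn for Vegfa (Pearson r = 0.78), Cyp26b1 for Vegfc (0.84), Heyl for Angpt1 (0.90), Fam181b for Flt1 (0.86), Podxl for Kdr (0.92), Nr5a2 for Flt4 (0.95), Dpysl2 for Nrp1 (0.81), Ramp2 for Tek (0.97) and Ushbp1 for Tie1 (0.99). The genes next in order were Mtus1, Heg1, Prkg1, Vwf, Sox18, Bcl6b, Nbdy, Plvap and Emcn. Ramp2, Emcn and Plvap were among the markers that named endothelial classes, and the classes share libraries, so these values describe the pattern and carry no test. Among the members themselves, r was highest for Kdr with Flt4 (0.90) and for Flt4 with Tie1 (0.90), and lowest for Angpt1 with Flt1 (0.01).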

How the data were processed

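Whole-lung cells were captured as droplets on a 10x platform, and per the labels the reads were processed with Cell Ranger and STAR on mm10 (GRCm38). The kit version is given differently in the labels and the study's methods. The authors deposited raw UMI counts, not normalized, of 31053 genes in 37344 barcodes of 7 libraries (3000 to 8747 barcodes each). Libraries 1, 2, 3 and 7 with at most 10% mitochondrial UMIs were used, as the members' rule gives. The matrix pools samples with no map to the labels, so no group comparison, test or p-value was made, and all 13 labelled samples entered no contrast. Members, pathway and marker lists were chosen with earlier results of these data known.

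Counts were scaled to 10000, and 2000 variable genes without members, pathway and mitochondrial genes gave 30 components, which were aligned by mutual nearest neighbours (20) and clustered with Leiden at resolution 1.0, over all cells and then within lineages (scanpy 1.11.5, leidenalg 0.10.2, scikit-learn 1.9.0, numpy 2.4.6, scipy 1.17.1, Python 3.11.15). Of 74 clusters, 50 were named. A name needed the best mean marker score, at least 3 markers in at least 10% of cells, at least 1 of them among the 10 leading genes and no other class with more there, and artery, vein and large-vessel lists were merged. This naming rule was set after clusters and member values were seen. Clusters with over 25% of cells carrying at least 3 genes of more than 1 lineage stayed unnamed. That limit was 40% at first and was lowered because a cluster of 147 cells led by Gap43, Higd1b and Cox4i2 had been named pericyte. Scrublet called doublets, which were kept, and leaving them out (20163 cells remained) was an alternative.

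CPM, folds (exact conditional intervals) and shares (Clopper-Pearson, cells under 1500 UMIs left out) were computed from summed counts. Intervals cover counting error only, and a count of 0 allows 3 counts. The call rule was tested on simulated data. The members were all named, with pathway genes that passed the rule and the 2 genes most like each member. Alternatives were 14 planned and 4 chosen after seeing the data. Promoter windows came from RefSeq and positions from GENCODE.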

Additional observations from a re-analysis of the deposited data

Results flagged for a closer look

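Libraries 4, 5 and 6, which entered no comparison, held UMIs of 8 of the 9 members, and 7 of them lay above what a count of 0 allows. Over the 3 libraries together the levels were 0.804 CPM for Vegfa, 1.27 CPM for Vegfc, 9.42 CPM for Angpt1, 6.13 CPM for Flt1, 0.268 CPM for Kdr, 21.2 CPM for Nrp1 and 0.0536 CPM for Tie1. Flt4 had 1 UMI and Tek 0 of 93272468 UMIs. Taken over whole libraries, the 4 used libraries held 48.2 to 99.2 CPM of Vegfa, 94.8 to 158 CPM of Flt1, 45.3 to 131 CPM of Kdr and 106 to 205 CPM of Nrp1, all above the values in libraries 4, 5 and 6. Angpt1 was the exception, since its 9.42 CPM lay within the 4.39 to 39.3 CPM of the used libraries.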

How the results depend on the processing

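The aerocyte-like comparison gave 5 members and the lymphatic comparison 6 under every alternative that gave a value. In the large-vessel comparison the count of 1 became 2 with at most 5% mitochondrial UMIs, with UMIs and genes within 2 SD or with unnamed clusters joined to their best class, and 3 at resolution 0.5 or with the members kept for clustering, and it was 1 to 2 when each library was left out. The alveolar type 1-like comparison, which could not be called, gave 7 members at resolution 2, 6 with marker gates and 1 with libraries of at least 2 cells. The pericyte comparison gave 8 in place of 5 without a CPM floor. The share of all genes that passed is not given for these alternatives. These counts therefore show only how far the calls moved, and nothing about the members against other genes. Pericyte-like Vegfa and Nrp1 turned from log2 folds of −1.99 and −1.63 to 0.20 and 0.13 with marker gates and to 0.98 and 0.69 with the 40% limit on mixed clusters, and Kdr went from 2.11 to 1.01 without cells of more than 1 lineage. With the 40% limit the pericyte-like log2 folds of Flt1, Kdr and Tek were 7.49, 7.18 and 6.86 in place of 4.54, 2.11 and 1.80. The cause was not tested. Adventitial Nrp1 missed the rule in 6 settings, at −0.55 to −0.96. No value came without library 2 for the lymphatic and pericyte comparisons, and the 5% limit gave no alveolar type 1-like class and no pericyte comparison. The class with the highest level was the same in all 12 ways of drawing classes for Flt1, Flt4, Kdr, Nrp1, Tek and Vegfc, in 11 for Vegfa and Tie1 and in 10 for Angpt1. Alveolar type 1-like and pericyte-like levels rest on 161063 and 192116 UMIs in all. No paired analysis of conditions was possible because the library columns carry no replicate number. Cell classes were set side by side within each library, without a test.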

Other observations

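Outside the classes compared above, a cluster of 127 cells led by Il1f9, Ccl4 and Hcar2, whose best list was neutrophil and of which 102 came from library 7, held 383 CPM of Vegfa (319 to 457), against 141 CPM in neutrophil-like cells. Natural killer cell-like cells held 119 CPM of Vegfa, 28.0 CPM of Kdr and 28.0 CPM of Tek. In the 254 of these cells with markers of a single lineage the levels were 96.6, 0.819 and 0.819 CPM.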
